A study of Mus musculus with 20 samples.

Results

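The wells described here held habenula cells from postnatal day 7 (P7) and adult mice that carried at least 1 count of Pou4f1 and none of the myelin genes Mog, Mag and Cldn11. They were chosen by those counts from kept wells: those where the counts outside spike-ins and the mitochondrial genome reached 1000, where 500 genes or more were seen and where mitochondrial counts were no more than 20%. In all, 609 of 1018 kept wells on the P7 and adult plates met the rule, of 4811 kept wells in the whole series. They numbered 280 of 326 on P7 plate 1, 253 of 294 on P7 plate 2, 1 of 56 on adult plate 1 and 75 of 342 on adult plate 2. Adult plate 1 thus contributed a single well, and the adult side of the comparison was in effect adult plate 2.

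The study measured single-cell RNA of the mouse habenula on plates of 384 wells by CEL-Seq2, which counts transcripts by a 6-base unique molecular identifier (UMI). All 4 plates used here carried dissected habenula of the Brn3a-tauLacZ mouse line, with 2 plates at P7 and 2 in the adult. The line's name refers to a reporter at Brn3a, the older name of Pou4f1. The sources used here do not state which mice carried the reporter allele, their sex, the adult age, the number of animals per plate or any sort gate. The plate was the replicate, and since nothing states that plates came from separate animals, p-values measure only the spread between plates. Every plate used the same set of 384 well barcodes by design, so a barcode found on several plates does not mark a shared cell.

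Pou4f1 encodes a POU-domain transcription factor present in habenula neurons from the embryo on. The medial habenula holds cholinergic and tachykinin neurons that project to the interpeduncular nucleus, and the lateral habenula holds glutamatergic neurons that project to midbrain monoamine centres. In the postnatal weeks neurons complete axon growth, exchange juvenile for mature subunits of many receptors, and become surrounded by myelinating oligodendrocytes.

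The share of Pou4f1 wells that held a myelin count was 5.41% and 2.32% on the P7 plates, 95.2% on adult plate 1 and 58.3% on adult plate 2. These shares chose the wells and are given as a description. Just outside the myelin threshold, 13 and 6 P7 wells, 0 wells of adult plate 1 and 48 wells of adult plate 2 held exactly 1 myelin count. Just inside the Pou4f1 threshold, 14, 24, 1 and 12 members held exactly 1 Pou4f1 count, against medians of 9, 8, 1 and 5. The members' median depth was 22923, 18468 and 16966 counts per well on P7 plate 1, P7 plate 2 and adult plate 2, with 7.03e6, 5.30e6 and 1.40e6 counts summed over each plate.

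**Figure D1:**
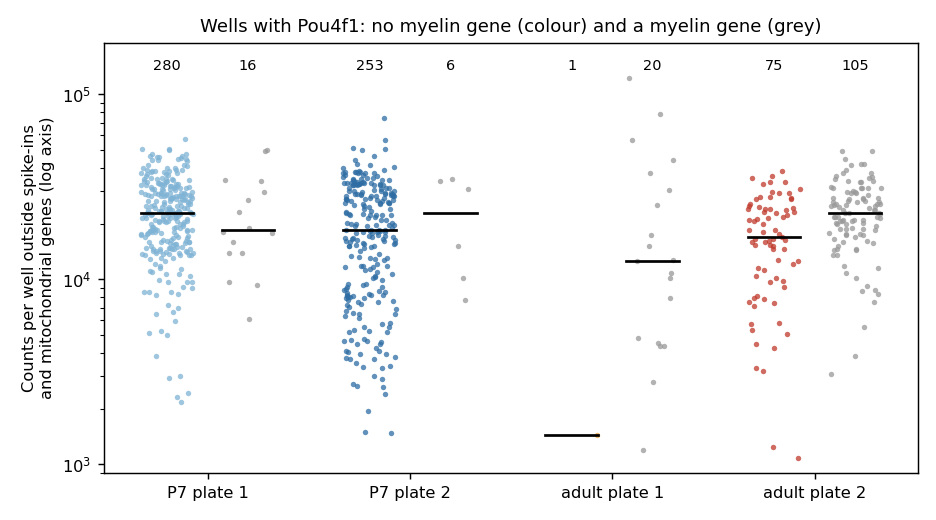
Counts per well (log axis, outside spike-ins and mitochondrial genes) of the kept Pou4f1 wells on the 4 plates; coloured points are members, grey points are Pou4f1 wells with a myelin gene, bars are medians and the row on top gives numbers of wells. A reader should see that adult plate 1 has 1 coloured point, at 1449 counts, while 20 of its 21 Pou4f1 wells are grey.

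The lone member of adult plate 1 held 1657 UMIs of 978 genes, 12.6% of them mitochondrial, 1 UMI of Pou4f1 and 3 of 10 neuron markers. Its 34 UMIs of Apod stood beside a P7 mean of 1.78 CPM, counts per 1e6 counts of a plate's member wells with spike-ins left out. A single UMI in it equals 603.5 CPM, and a gene with 0 UMIs there may lie as high as 1810.5 CPM (3 UMIs, counting error only). For this reason 3 tests were run. The first compares the members of all 4 plates; the second leaves out adult plate 1, and assumes that adult plate 2 varies like the P7 plates. The third takes all 21 and 180 Pou4f1 wells of the adult plates and all 296 and 259 of the P7 plates, whatever their myelin counts, so that both adult plates carry weight (555862 and 4018214 counts). On adult plate 1 the 2 deepest of the 21 wells held 122457 and 78588 counts beside a median of 12495, so its levels lean on those wells. Its 20 Pou4f1 wells with a myelin gene held a median of 10.6% mitochondrial counts and 4482 spike-in counts. Such wells of P7 plate 1, P7 plate 2 and adult plate 2 held 4.08%, 5.13% and 4.99%, and 804, 953 and 1186 spike-in counts. What this does to the levels of adult plate 1 was not tested. Beside the adjusted p of a gene called among the members stands that over all Pou4f1 wells, and the second test is given for most gene lists and for some genes. Below, the levels of adult plate 1 come from its 21 Pou4f1 wells, where 1 count equals 1.80 CPM, and its lone member held 4 UMIs of Snap25, 2 each of Nfix, Kctd12 and Slc1a3, 1 each of Map1a, Tuba1a, Tuba4a, Ina, Gabbr1 and Aldoc, and 0 of the other genes given with levels unless a number stands there.

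The members carried neuronal RNA. The median well on P7 plate 1, P7 plate 2 and adult plate 2 held 10 of 10 neuron markers, and 1, 3 and 6 wells held fewer than 5. At least 2 of the medial habenula genes were seen in 273, 246 and 71 wells. The markers of other cells were also present. Summed astrocyte markers (16 genes) stood at 234 and 99.5 CPM on the P7 plates and 685 CPM on adult plate 2. A single well gave 24.9% of those UMIs on P7 plate 1, 7.97% on P7 plate 2 and 21.9% on adult plate 2. Summed oligodendrocyte markers (18 genes) stood at 223 and 195 against 536 CPM, with Mobp at 0 on both P7 plates and none of the 18 at 0 on adult plate 2. Precursor markers (11 genes) stood at 172 and 150 against 502 CPM, and vascular markers (13 genes) at 116 and 109 against 209 CPM. Over the 21 Pou4f1 wells of adult plate 1, which give that plate's levels and enter the third test, the oligodendrocyte markers summed to 5856 CPM, the astrocyte markers to 1297 CPM, the precursor markers to 1418 CPM and the vascular markers to 246 CPM. The 180 Pou4f1 wells of adult plate 2 held 575, 540, 408 and 162 CPM of these. The lone member held 43 UMIs of oligodendrocyte markers (25950.5 CPM) and 10259.5 CPM of vascular markers. Among the members, microglia markers (12 genes) stood at 31.9 and 29.8 against 34.9 CPM, with 6 of 12 at 0 on adult plate 2. Wells with at least 2 nonneuronal genes made up 7.14%, 2.77% and 22.7% of members. The part of these cells' RNA in the differences below was not tested.

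With the members of all 4 plates, edgeR's quasi-likelihood test called 1548 of 12813 genes (12.1%) at a Benjamini-Hochberg adjusted p under 0.05. Of these, 865 were higher in the adult (6.75%) and 683 lower (5.33%). Without adult plate 1 the same test called 3420 of 15145 genes (22.6%), 1620 higher (10.7%) and 1800 lower (11.9%), and 1451 of the 1548 calls were among them with the same sign. Over all Pou4f1 wells 116 of 14250 genes (0.814%) were called, 50 higher (0.351%) and 66 lower (0.463%). All 116 were also called without adult plate 1. As a background for the statements on overlap below, over all Pou4f1 wells both adult plates were above both P7 plates for 25.1% of the 12813 genes and below both for 29.9%. Leaving out P7 plate 1 or P7 plate 2 left 655 or 645 calls in the members, and leaving out adult plate 2, which left only the lone well on the adult side, gave 444. The lone well bore most on abundant genes. Of 242 tested genes with a P7 mean of at least 500 CPM, 1 was called with it and 124 without it, while the median standard error of the log2 fold change went from 2.53 to 0.13.

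Listed genes of axon growth and the immature neuron that passed the test were, but for 1, lower in the adult members. Of 34 listed genes, 12 fell and 1 rose in the members of 4 plates, where 5.33% of all genes fell and 6.75% rose. The median log2 fold change was -1.52 against -0.04 for all genes tested. Without adult plate 1 the median was -1.33 against -0.02 for all genes. Over all Pou4f1 wells 10 fell and 0 rose (median -0.88), where 0.463% of all genes fell and 0.351% rose. Without P7 plate 1 or P7 plate 2 the first count dropped to 2 or 1.

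Dcx, a microtubule-binding protein of migrating and extending neurons (chromosome X, 143855842 to 143933311, minus strand, GRCm38), stood at 264 and 295 CPM on the P7 plates and 37.0 CPM on adult plate 2. Over the Pou4f1 wells of adult plate 1 it stood at 68.4 CPM, so both adult plates lay below both P7 plates. It fell by 2.98 ± 0.41 on the log2 scale (SE, edgeR adjusted p = 1.3e-10), and over all Pou4f1 wells by 2.53 ± 0.33 (adjusted p = 0.048). Sox4, a transcription factor of newly made neurons, stood at 398 and 443 against 81.2 CPM on adult plate 2 and 48.6 CPM on adult plate 1. The groups did not overlap, and it fell by 2.44 ± 0.39 (adjusted p = 3.9e-08), or by 2.66 ± 0.25 over all Pou4f1 wells (adjusted p = 0.033). L1cam, an adhesion molecule of growing axons whose locus overlaps Arhgap4 and Avpr2, so that its reads are uncertain, stood at 296 and 283 against 86.9 and 52.2 CPM and fell by 1.81 ± 0.36 (adjusted p = 1.8e-05; over all Pou4f1 wells 0.034). Cd24a, a surface protein of young neurons, stood at 81.6 and 76.5 against 12.1 and 16.2 CPM and fell by 2.77 ± 0.47 (adjusted p = 2.9e-07; over all Pou4f1 wells 0.039).

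The most abundant growth genes showed what the lone well does to the first test. Dpysl3, which links semaphorin signals to the axon's cytoskeleton, stood at 953 and 976 CPM on the P7 plates against 142 CPM on adult plate 2 and 128 CPM on adult plate 1. Both adult plates lay far below both P7 plates, and the lone well held 1 UMI. The members' test gave -3.10 ± 2.73 (adjusted p = 0.55), whereas without adult plate 1 the gene fell by 2.83 ± 0.16 (adjusted p = 6e-63) and over all Pou4f1 wells by 2.82 ± 0.18 (adjusted p = 0.021). Marcksl1, an actin-binding substrate of protein kinase C, stood at 1123 and 1180 against 172 and 178 CPM. It fell in the same pair of tests and not in the first (-3.39 ± 2.85, adjusted p = 0.53; over all Pou4f1 wells -2.75 ± 0.18, adjusted p = 0.021). Stmn2, a regulator of microtubules in axons, went from 1213 and 1116 to 435 and 444 CPM, Basp1, a growth-cone membrane protein, from 618 and 690 to 209 and 209 CPM, and Marcks from 915 and 924 to 398 and 372 CPM. These 3 were likewise called lower over all Pou4f1 wells (adjusted p = 0.045, 0.034 and 0.045) and not in the members of 4 plates (adjusted p = 0.70, 0.63 and 0.72).

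A few genes of the list did not follow the others. Gap43, a growth-cone protein, stood at 24.0 and 42.5 CPM on the P7 plates, 69.1 CPM on adult plate 2 and 205 CPM on adult plate 1. It was the member of the list called higher (log2 1.01 ± 0.29, adjusted p = 0.0083), though over all Pou4f1 wells its adjusted p was 0.16. Robo2, a Slit receptor, and Nfix, a transcription factor, were lower on adult plate 2 (52.0 and 48.4 CPM, from 127 and 117 and from 124 and 111 CPM) but not on adult plate 1, at 182 and 146 CPM. Over all Pou4f1 wells neither passed (adjusted p = 0.90 and 0.70). Nfix was also at 529 CPM in the pooled adult wells with no Pou4f1 and at least 3 myelin counts.

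**Figure D2:**
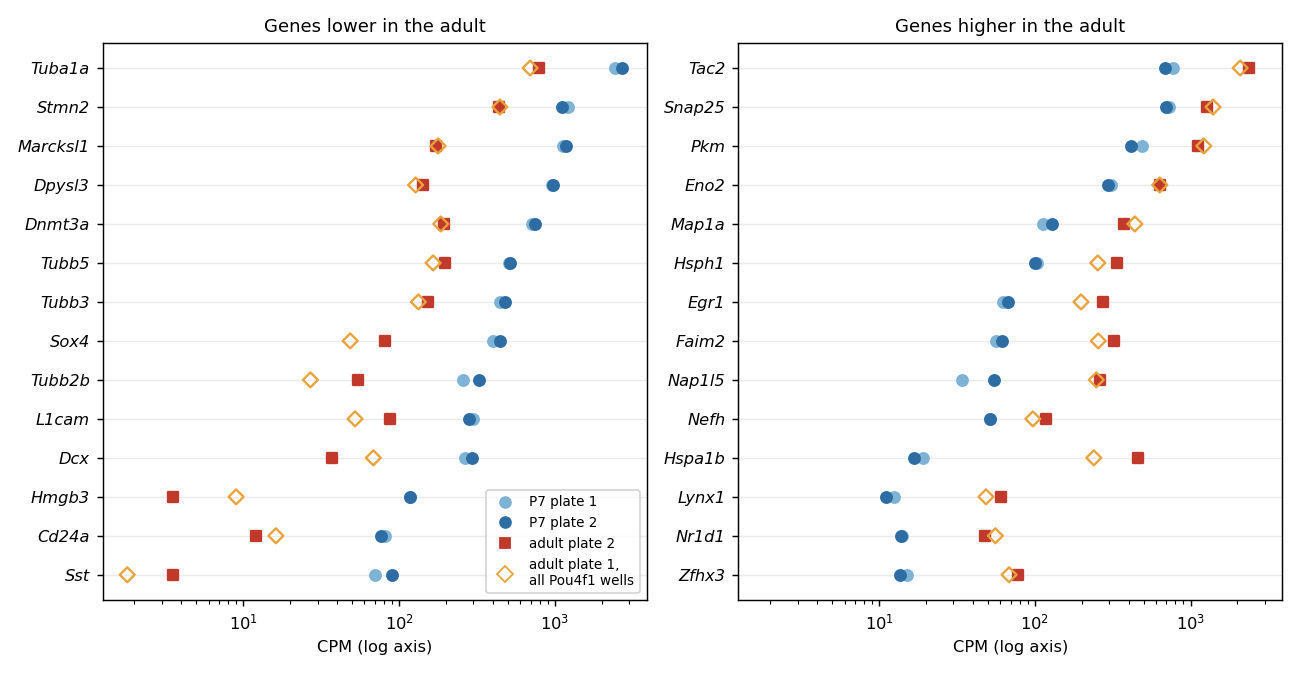
Levels (CPM, log axis) of 28 genes chosen after their values were seen, 14 lower and 14 higher in the adult: filled circles are the members of the P7 plates, squares those of adult plate 2 and open diamonds all 21 Pou4f1 wells of adult plate 1. Within each panel the adult markers lie on the same side of both P7 circles, for instance Dpysl3 at 953 and 976 against 142 and 128 CPM.

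The cytoskeleton was divided. Of 27 tubulin and microtubule genes tested, 5 fell and 2 rose among the members, where 5.33% of all genes fell and 6.75% rose. The median was -0.45 against -0.04 for all genes, and without adult plate 1 -0.16 against -0.02. Over all Pou4f1 wells 5 fell and 1 rose (median -0.24), where 0.463% and 0.351% of all genes did. Tubb2b, a tubulin of growing neurons, stood at 258 and 326 against 54.8 CPM on adult plate 2 and 27.0 CPM on adult plate 1, and fell by 2.47 ± 0.39 (adjusted p = 2.1e-08; over all Pou4f1 wells 0.031). Tubb3 went from 446 and 479 to 152 and 133 CPM and Tubb5 from 511 and 512 to 199 and 166 CPM, with both adult plates lower (adjusted p = 0.00012 and 0.0016; over all Pou4f1 wells 0.034 and 0.046). Tuba1a stood at 2436 and 2698 against 794 and 694 CPM, and fell by 1.80 ± 0.18 over all Pou4f1 wells (adjusted p = 0.034) but did not pass among the members (adjusted p = 0.69). Tubulin genes are close in sequence, and reads may be shared between them.

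The 2 that rose were Map1a and Tuba4a. Map1a, a microtubule-associated protein of adult neurons, stood at 112 and 129 against 372 and 439 CPM and rose by 1.54 ± 0.27 (adjusted p = 1.1e-06; over all Pou4f1 wells adjusted p = 0.045), though it overlaps Ppip5k1 on the other strand and the adult myelin-rich wells without Pou4f1 held 369 CPM. Tuba4a, at 45.8 and 39.1 against 99.0 and 64.8 CPM, rose as well (log2 1.16 ± 0.29, adjusted p = 0.0012; over all Pou4f1 wells 0.11). Of 4 neurofilament genes tested, 1 rose and 0 fell among the members, where 12.1% of all genes were called. Without adult plate 1 their median was -0.19 against -0.02 for all genes, and over all Pou4f1 wells 0 changed. Nefh, the heavy subunit, stood at 51.9 and 51.2 against 118 and 97.1 CPM, rose by 1.12 ± 0.29 (adjusted p = 0.002; over all Pou4f1 wells 0.066) and was at 2.86 CPM in those myelin-rich wells. Ina, the neurofilament partner alpha-internexin, went the other way, from 1778 and 1673 to 657 and 754 CPM (without adult plate 1, -1.47 ± 0.15, adjusted p = 3.5e-20; 0.73 with it and 0.057 over all Pou4f1 wells).

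The 12 largest falls among genes of at least 50 CPM, taken by a rule, included Hmgb3, Sst, Islr2, Fgf15, Zfp804b, AW551984, Gad1, Dcx, Igsf21, Cd24a and Slc44a5. The rule takes genes whose adult plates lie apart from P7, and all of these had 0 UMIs in the lone well. Hmgb3, a high mobility group chromatin protein of proliferating and young cells (chromosome X, 71555918 to 71560676, plus strand), stood at 117 and 118 CPM at P7. On adult plate 2 it stood at 3.56 CPM, 5 UMIs in 5 wells, and on adult plate 1 at 9.0 CPM. Both adult plates lay more than an order of magnitude below P7, and it fell by 5.09 ± 0.63 (adjusted p = 2.7e-13; over all Pou4f1 wells by 3.86 ± 0.23, adjusted p = 0.021). Sst, the neuropeptide somatostatin (chromosome 16, 23889573 to 23890958, minus strand), stood at 70.1 and 90.3 CPM at P7, 3.56 CPM on adult plate 2 (5 UMIs in 3 wells) and 1.80 CPM on adult plate 1. It fell by 4.53 ± 0.61 (adjusted p = 3.4e-11), and by 3.68 ± 0.39 over all Pou4f1 wells (adjusted p = 0.034).

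Further members of that group had both adult plates below both P7 plates. Islr2, a membrane protein of axon extension, went from 44.4 and 56.3 to 4.27 and 9.0 CPM, and Fgf15, a secreted growth factor of the embryonic brain, from 68.1 and 61.7 to 5.70 and 7.2 CPM. Both fell among the members (adjusted p = 1.5e-08 and 5.8e-09) and over all Pou4f1 wells (0.0496 and 0.023). Gad1, an enzyme of GABA synthesis, stood at 79.8 and 94.0 against 10.7 CPM on adult plate 2 but at 57.6 CPM on adult plate 1. It fell among the members (-3.08 ± 0.49, adjusted p = 3.3e-08) and not over all Pou4f1 wells (adjusted p = 0.29). Its 15 UMIs on adult plate 2 came from 6 wells.

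Of 42 transcription factors tested, 5 rose and 7 fell among the members, where 6.75% of all genes rose and 5.33% fell. Without adult plate 1 the list's median was -0.37 against -0.02 for all genes. Over all Pou4f1 wells 2 rose and 1 fell, where 0.351% and 0.463% of all genes did. The 5 that rose comprised the homeobox genes Zfhx3 and Zfhx4 and 3 genes of the circadian clock. Zfhx3 stood at 15.1 and 13.6 against 78.4 and 68.4 CPM and rose by 2.36 ± 0.28 (adjusted p = 9.2e-15, over all Pou4f1 wells 0.039). Zfhx4 stood at 34.8 and 33.4 against 113 and 97.1 CPM, with 3 UMIs in the lone well (adjusted p = 1.1e-07 and 0.049). The adult myelin-rich wells without Pou4f1 held 48.6 CPM of Zfhx3 and 91.5 CPM of Zfhx4.

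The clock genes were Nr1d1, a repressor that stood at 13.9 and 13.8 against 47.7 and 55.8 CPM, Dbp, an activator at 11.8 and 9.44 against 37.0 and 27.0 CPM, and Per3 at 23.8 and 19.6 against 54.1 and 55.8 CPM. Both adult plates were above both P7 plates for each, and the members' test gave log2 changes of 1.71, 1.71 and 1.24 (adjusted p = 6.8e-07, 2.6e-06 and 0.00071). Over all Pou4f1 wells they missed the threshold (0.066, 0.088 and 0.080). All 3 overlap another gene, and the adult myelin-rich wells held 71.5, 40.1 and 57.2 CPM of them, levels near those of the members. The sources used here do not state the hour of collection.

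The factors that fell were Nhlh1, Nhlh2, Onecut2, Neurod6, Lmo3, Bcl11a and Ebf3, all known from developing neurons. Nhlh2 stood at 370 and 421 against 204 and 133 CPM (adjusted p = 0.022) and Lmo3 at 307 and 286 against 138 and 151 CPM (0.0063). Neither passed over all Pou4f1 wells (0.084 and 0.080). Neurod6 was at 17.9 and 15.5 CPM at P7 and had 1 UMI on adult plate 2 and 0 on adult plate 1 (adjusted p = 4.2e-07; over all Pou4f1 wells 0.0496). Among 28 chromatin genes tested, 2 rose and 5 fell among the members, where 6.75% of all genes rose and 5.33% fell. Over all Pou4f1 wells 1 rose and 2 fell, where 0.351% and 0.463% of all genes did. Nap1l5, an imprinted nucleosome assembly gene inside Herc3, stood at 33.9 and 54.6 against 262 and 248 CPM and rose by 2.5 ± 0.27 (adjusted p = 1.5e-17; over all Pou4f1 wells 0.034). Its level in the adult myelin-rich wells, 243 CPM, was close to that of the members. Dnmt3a, the de novo DNA methyltransferase, went from 716 and 749 to 193 and 185 CPM and fell by 1.89 ± 0.17 over all Pou4f1 wells (adjusted p = 0.030; 0.59 among the members).

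The nicotinic receptor system is a hallmark of the habenula. Of 10 subunit and modulator genes tested, 2 rose and 3 fell among the members, where 6.75% of all genes rose and 5.33% fell. Over all Pou4f1 wells 1 rose and 0 fell, where 0.351% and 0.463% of all genes did. Lynx1, a membrane-anchored brake on nicotinic receptors (chromosome 15, 74747852 to 74753046, minus strand), stood at 12.5 and 11.1 CPM at P7, 60.5 CPM on adult plate 2 and 48.6 CPM on adult plate 1. Both adult plates were more than 3 times above both P7 plates, and it rose by 2.27 ± 0.29 (adjusted p = 7.3e-13), by 2.16 ± 0.23 over all Pou4f1 wells (0.034). The adult myelin-rich wells held 8.58 CPM of it. The alpha subunits Chrna6, at 35.7 and 33 against 6.41 and 14.4 CPM, and Chrna7, at 15.4 and 14.2 against 4.99 and 5.40 CPM, fell (adjusted p = 1.6e-05 and 0.013), as did Chrna5, of which adult plate 2 held 2 UMIs and adult plate 1 held 0 (P7 9.96 and 8.50 CPM; adjusted p = 0.0026). Over all Pou4f1 wells these 3 did not pass (0.086, 0.16 and 0.14). Chrna4 rose on adult plate 2 (37.1 and 39.1 against 81.9 CPM, adjusted p = 0.0059; over all Pou4f1 wells 0.39), while adult plate 1 stood at 25.2 CPM.

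Medial habenula markers summed to 6601 CPM over the Pou4f1 wells of adult plate 1 and 9578 CPM over those of adult plate 2, and lateral markers to 1770 and 1328 CPM. The Pou4f1 wells of the P7 plates held 7618 and 7696 CPM of medial and 1668 and 1706 CPM of lateral markers. Among the members, medial markers stood at 7647 and 7683 CPM at P7 against 9266 CPM on adult plate 2. Lateral markers stood at 1681 and 1713 against 1304 CPM. The part of these differences in the gene values above and below was not tested. Of 10 peptide, opioid and orphan receptors tested, 5 rose (Oprm1, Tacr1, Gprc5b, Kiss1r and Gpr4) and 0 fell among the members. Of all genes 6.75% rose and 5.33% fell. The list's median was 1.03 against -0.04 for all genes, and without adult plate 1 it was 1.32 against -0.02. Over all Pou4f1 wells 0 changed. Without either P7 plate 4 were called, and without adult plate 2 there were 0. Oprm1, the mu opioid receptor, stood at 148 and 193 against 417 CPM on adult plate 2 and 157 CPM on adult plate 1, whose level lay between the P7 plates (adjusted p = 0.00048; over all Pou4f1 wells 0.40). Tacr1, the substance P receptor, stood at 44.7 and 46.1 against 119 and 32.4 CPM (0.00013 and 0.37). Gpr151, an orphan receptor of habenula axons, stood at 297 and 333 against 978 and 290 CPM; it passed without adult plate 1 (log2 1.56 ± 0.12, adjusted p = 1.9e-35) and not with it (0.90). Gpr4, a proton-sensing receptor at 10.2 and 6.04 against 49.9 and 32.4 CPM, was higher on both adult plates (adjusted p = 2.2e-14; over all Pou4f1 wells 0.057).

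Of 8 serotonin, dopamine and adenosine receptor genes tested, 3 rose and 1 fell among the members, where 6.75% of all genes rose and 5.33% fell. Without adult plate 1 the median was 0.32 against -0.02 for all genes, and over all Pou4f1 wells 0 changed. Htr2c, a serotonin receptor that marks the lateral habenula (chromosome X, 146962513 to 147197277, plus strand), stood at 19.6 and 16.2 CPM at P7, 171 CPM on adult plate 2 and 813 CPM on adult plate 1. Both adult plates were above P7 but stood far apart, and it rose by 3.15 ± 0.27 among the members (adjusted p = 3.3e-28), with 0.089 over all Pou4f1 wells. Of its UMIs on adult plate 2, 31.8% came from 1 of 24 wells. Htr5b stood at 20.5 and 32.3 against 71.2 and 16.2 CPM (adjusted p = 5.7e-05; over all Pou4f1 wells 0.38), higher on adult plate 2 only. Chrm2, a muscarinic receptor at 3.84 and 3.78 against 57.7 and 16.2 CPM, was called (1.8e-30), though its 81 UMIs came from 5 wells and it missed the threshold over all Pou4f1 wells (0.069). Chrm3 stood at 159 and 153 against 49.1 and 106 CPM. It fell among the members (0.0001) and did not pass over all Pou4f1 wells (0.19).

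**Figure D3:**
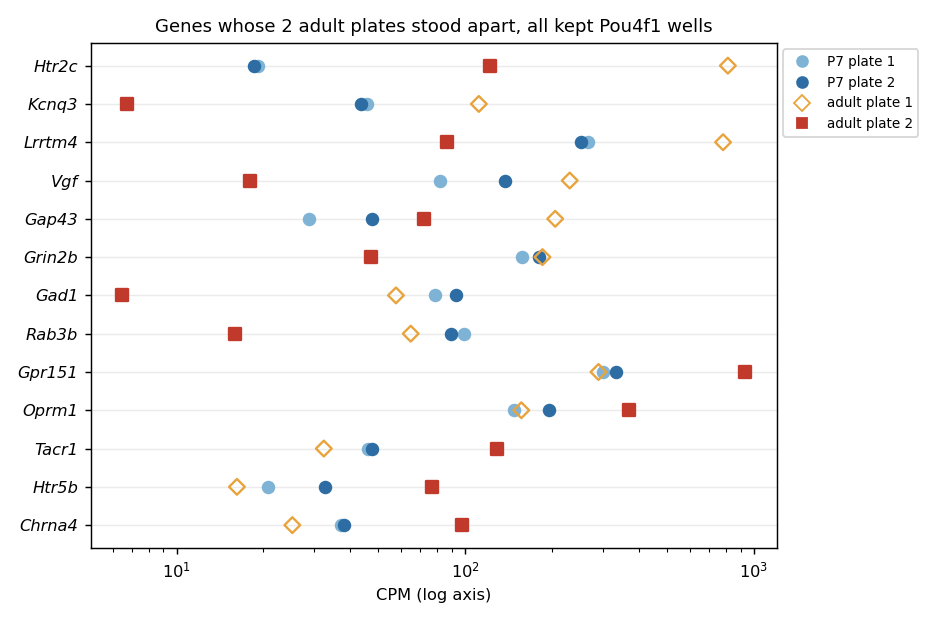
Levels (CPM, log axis) over all kept Pou4f1 wells of each plate for 13 genes chosen, after their values were seen, because the adult plates stood apart. For Htr2c the open diamond of adult plate 1 lies at 813 CPM and the square of adult plate 2 at 122 CPM, and for Gpr151 they lie at 290 and 936 CPM.

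Of 21 subunits of the ionotropic and metabotropic glutamate receptors tested, 2 rose and 6 fell among the members. Of all genes 6.75% rose and 5.33% fell. The list's median was -0.64 there and -0.30 without adult plate 1, against -0.04 and -0.02 for all genes. Over all Pou4f1 wells 0 changed (median -0.24), where 0.814% of all genes were called. Fewer falls were called when P7 plate 1 or P7 plate 2 was left out. Grin2b, the juvenile NMDA receptor subunit, stood at 160 and 179 against 46.3 CPM on adult plate 2 and 185 CPM on adult plate 1. It fell by 1.93 ± 0.38 among the members (adjusted p = 1.5e-05), but adult plate 1 lay above both P7 plates (over all Pou4f1 wells 0.59). Grin2a, its mature counterpart, stood at 171 and 182 against 263 and 135 CPM and passed only without adult plate 1 (log2 0.50 ± 0.13, adjusted p = 0.0013; 0.30 among the members). Grm8, a presynaptic metabotropic receptor, stood at 107 and 95.6 against 26.4 and 73.8 CPM, and Grm5 at 310 and 339 against 141 and 295 CPM. Both fell among the members (0.000031 and 0.003) and neither passed over all Pou4f1 wells (0.24 and 0.41).

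Among 22 receptor genes for GABA and glycine tested, 2 rose and 3 fell in the members, where 12.1% of all genes were called. Without adult plate 1 the list's median was -0.006 against -0.02 for all genes. Over all Pou4f1 wells 0 rose and 1 fell, where 0.351% and 0.463% of all genes did. Gabra5 stood at 38.8 and 34.7 CPM at P7, 7.84 CPM on adult plate 2 and 0 counts on adult plate 1, which allows 5.40 CPM (3 counts, counting error only). It fell by 2.29 ± 0.47 (adjusted p = 3.8e-05; over all Pou4f1 wells 0.080). Kctd12, an auxiliary subunit of GABA-B receptors, stood at 92.2 and 92.9 against 39.9 and 25.2 CPM and fell in both (0.012 and 0.049). Gabbr1, the GABA-B ligand-binding subunit, stood at 1179 and 1215 against 2566 and 1734 CPM and passed without adult plate 1 alone (log2 1.03 ± 0.14, adjusted p = 2.3e-12; 0.99 with it and 0.13 over all Pou4f1 wells).

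Of 20 neuropeptide and granin genes tested, 1 rose (Pcsk1) and 2 fell (Vgf and Sst) among the members, where 12.1% of all genes were called. Without adult plate 1 the list's median was -0.29 against -0.02 for all genes. Over all Pou4f1 wells 1 rose and 1 fell, where 0.351% and 0.463% of all genes did. Tac2, the tachykinin that marks the medial habenula (chromosome 10, 127724478 to 127731768, plus strand), stood at 772 and 684 CPM at P7 and 2387 and 2081 CPM on adult plates 2 and 1, with 3 UMIs in the lone well. Both adult plates were above both P7 plates. The log2 change was 1.64 ± 0.13 without adult plate 1 (adjusted p = 1.1e-33), 1.66 ± 0.19 over all Pou4f1 wells (0.037) and 0.82 ± 2.76 among the members (0.91). The adult myelin-rich wells without Pou4f1 held 790 CPM. Vgf, a granin, stood at 84.1 and 138 against 22.1 CPM on adult plate 2 and 230 CPM on adult plate 1, so the adult plates lay on either side of P7 (adjusted p = 1.5e-06; over all Pou4f1 wells 1.0). Pcsk1n, an inhibitor of peptide processing, stood at 499 and 402 against 1055 and 1025 CPM, and passed without adult plate 1 only (1.5e-18; 0.96 with it and 0.062 over all Pou4f1 wells).

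Of 38 genes of transmitter release tested, 2 rose (Syt2 and Sncg) and 3 fell (Stx1a, Rab3b and Unc13c) among the members. This count was near the 12.1% called over all genes. The lone well bore most on abundant genes in this test, so the count does not show that the list was unchanged. Over all Pou4f1 wells 0 changed. There, both adult plates lay above both P7 plates for 16 of the 38 and below for 7, where 25.1% and 29.9% of all genes did. The median log2 fold change without adult plate 1 was 0.15 against -0.02 for all genes. Syt2, a fast calcium sensor, stood at 8.82 and 7.18 against 37.0 and 73.8 CPM (log2 2.12 ± 0.32, adjusted p = 4.4e-09), and did not pass over all Pou4f1 wells (0.10). Snap25, a fusion protein of the terminal, stood at 722 and 695 against 1270 and 1394 CPM, above P7 on both adult plates, with a log2 change of 0.77 ± 0.13 without adult plate 1 (6e-08). It did not pass among the members (0.99) or over all Pou4f1 wells (log2 0.90 ± 0.18, 0.088).

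Potassium channel genes numbered 3 higher and 2 lower of 40 tested among the members, a count near the 12.1% called over all genes. Here too the lone well weakened the test of abundant genes, and the count does not show an unchanged list. Over all Pou4f1 wells 0 changed. There, both adult plates lay above both P7 plates for 15 of the 40 and below for 9, where 25.1% and 29.9% of all genes did. Their median without adult plate 1 was -0.02, as for all genes. Kcnj9, a G protein-gated channel, stood at 15.2 and 25.5 against 80.5 and 48.6 CPM and rose by 1.93 ± 0.28 (adjusted p = 7.9e-10; over all Pou4f1 wells 0.090). Kcnq3, the M-current subunit, stood at 43.1 and 41.9 against 4.99 CPM on adult plate 2 and 112 CPM on adult plate 1, with 1 UMI in the lone well. It was called lower (7.1e-07), and over all Pou4f1 wells its log2 change was 0.06 ± 1.13 (0.99). The adult myelin-rich wells without Pou4f1 held 232 CPM of it. The sodium channel beta subunit Scn2b stood at 42.8 and 52.5 against 132 and 101 CPM and rose by 1.40 ± 0.28 (3.3e-05; over all Pou4f1 wells 0.062). The T-type calcium channel gene Cacna1h stood at 18.8 and 19.1 CPM at P7 and had 4 UMIs on adult plate 2 (2.85 CPM) and 1.80 CPM on adult plate 1, and fell by 2.78 ± 0.57 (3.8e-05; over all Pou4f1 wells 0.060).

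**Figure D4:**
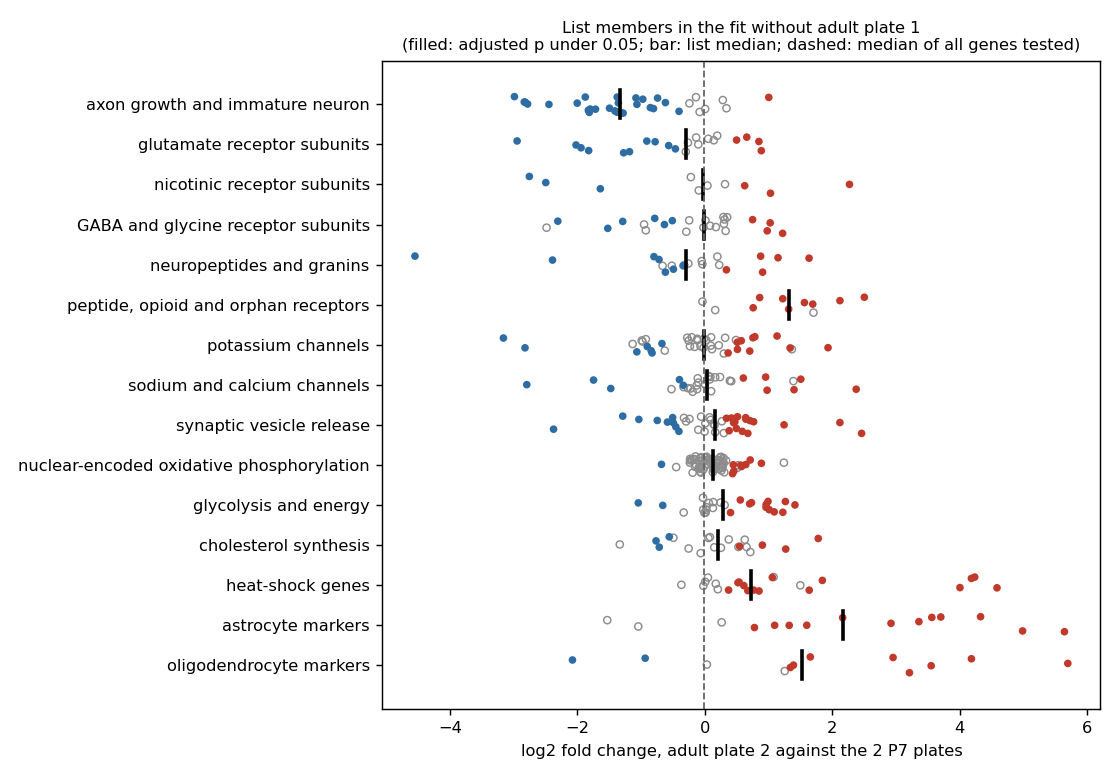
Log2 fold change of every tested gene of 15 lists, adult plate 2 against the P7 plates without adult plate 1: filled points have an adjusted p under 0.05, black bars are list medians and the dashed line is the median of all genes tested. The black bar lies at -1.33 for the axon growth list and at 0.72 for the heat-shock list, with the dashed line at -0.02. For synaptic vesicle release (0.15) and potassium channels (-0.02) the bar lies nearer that line, with filled points on both sides.

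Of 26 glycolysis and energy genes tested, 7 rose (Tpi1, Gapdh, Pgam1, Eno1, Eno2, Ldhb and Got1) and 1 fell (Pfkp) among the members. Of all genes 6.75% rose and 5.33% fell, and the list's median was 0.19 against -0.04 for all genes. Without adult plate 1 the median was 0.28 against -0.02 for all genes. Most of the 7 rises were not called without P7 plate 1 or without P7 plate 2, and over all Pou4f1 wells 0 genes changed (median 0.38). Eno2, the neuronal enolase, stood at 309 and 295 CPM at P7 and at 633 CPM on each adult plate. It rose by 0.93 ± 0.31 (adjusted p = 0.025), with 0.059 over all Pou4f1 wells. Pkm, pyruvate kinase, stood at 484 and 417 against 1110 and 1216 CPM and passed without adult plate 1 (log2 1.22 ± 0.12, adjusted p = 4.8e-21) but not with it (0.96; over all Pou4f1 wells 0.052). Pfkp, the platelet form of phosphofructokinase, stood at 237 and 215 against 115 and 95.3 CPM and fell by 1.04 ± 0.33 (0.017; over all Pou4f1 wells 0.057). Of 73 nuclear genes of oxidative phosphorylation tested, 1 rose (Ndufs7) and 0 fell among the members, with a median of 0.12, where 12.1% of all genes were called. Leaving out adult plate 1 gave a median of 0.13 against -0.02 for all genes. Over all Pou4f1 wells 0 changed, where 0.814% of all genes were called. In cholesterol synthesis 3 of 19 rose and 0 fell among the members, where 12.1% of all genes were called. Without adult plate 1 the median was 0.2 against -0.02 for all genes. Over all Pou4f1 wells 0 changed. There, both adult plates lay above both P7 plates for 9 of the 19 and below for 4, where 25.1% and 29.9% of all genes did. Stard4, a sterol carrier, stood at 12.9 and 10.0 against 42.0 and 34.2 CPM and rose among the members (3.8e-07; over all Pou4f1 wells 0.067).

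Heat-shock genes, which encode chaperones, were called in 1 direction. Of 19 tested among the members, 6 rose (Hspa1a, Hspa1b, Hspa4l, Hsph1, Dnajb1 and Chordc1) and 0 fell, where 6.75% of all genes rose and 5.33% fell. The median was 0.61 against -0.04 for all genes. Without adult plate 1 the median was 0.72 against -0.02 for all genes. Over all Pou4f1 wells 2 of 22 rose, where 0.351% of all genes did. Without P7 plate 1 or P7 plate 2, 2 rose. Hspa1b, an inducible Hsp70 chaperone, stood at 19.1 and 16.8 CPM at P7, 457 CPM on adult plate 2 and 239 CPM on adult plate 1. Both adult plates lay more than 10-fold above P7, and it rose by 4.55 ± 0.29 (adjusted p = 2.5e-52; over all Pou4f1 wells by 4.25 ± 0.35, 0.023). Hspa1a, its neighbour copy, stood at 27.4 and 27.2 against 543 and 146 CPM, with 5 UMIs in the lone well and 65 of 75 wells of adult plate 2 positive (4.24 ± 0.28, 2.1e-46; over all Pou4f1 wells 0.057). Hsph1, a large co-chaperone, stood at 104 and 101 against 336 and 254 CPM and rose in both (2.4e-07 and 0.046). The adult myelin-rich wells without Pou4f1 held 117, 163 and 186 CPM of Hspa1b, Hspa1a and Hsph1, also above both P7 plates. They held 197 CPM of Dnajb1, which stood at 38.4 and 38.3 CPM at P7 and 145 CPM on adult plate 2. Whether the rises are particular to the members was not tested.

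How reads were divided between the Hsp70 pair is uncertain and was not tested. The 200 bases shown, before the start of each copy, are not transcribed and do not bear on that. They come from RefSeq on GRCm38.p6, minus strand, at chr17:34972157-34972356 and chr17:34959239-34959438, written in the direction of transcription. Capitals mark the only match to GAANNTTC, an inverted pair of the units that heat-shock factor binds, searched on both strands (the motif is its own reverse complement).
Hspa1a: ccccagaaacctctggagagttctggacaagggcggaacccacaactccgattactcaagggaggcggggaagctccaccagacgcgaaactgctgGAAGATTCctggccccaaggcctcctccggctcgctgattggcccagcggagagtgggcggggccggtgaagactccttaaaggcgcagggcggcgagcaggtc
Hspa1b: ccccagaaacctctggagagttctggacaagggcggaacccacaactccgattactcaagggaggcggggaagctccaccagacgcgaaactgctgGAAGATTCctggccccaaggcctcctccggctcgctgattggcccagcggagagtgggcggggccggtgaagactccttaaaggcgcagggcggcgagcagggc
The match lies 104 bases before the start in each, and the copies differ at 1 of 200 bases. Of 32851 RefSeq promoters in the same window, 5.358% hold the motif. Of 18 heat-shock genes with a promoter there, 6 hold it, and 2 of the 6 called genes do.

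Immediate early genes, which cells switch on within minutes of stimulation, gave 5 rises of 21 tested (Jun, Egr1, Arc, Btg2 and Atf3) and 0 falls. Of all genes 6.75% rose and 5.33% fell, and the list's median of -0.04 was that of all genes. Leaving out adult plate 1 gave a median of -0.01 against -0.02 for all genes. Over all Pou4f1 wells 1 of 23 rose and 0 fell, where 0.351% and 0.463% of all genes did. There, both adult plates lay above both P7 plates for 4 of the 21 and below for 6, where 25.1% and 29.9% of all genes did. Egr1 stood at 62.7 and 67.2 against 273 and 198 CPM and rose by 1.98 ± 0.27 (adjusted p = 4.7e-11; over all Pou4f1 wells 0.034). The adult myelin-rich wells without Pou4f1 held 172 CPM of Egr1. Arc, at 39.7 and 41.7 against 150 CPM, was at 39.6 CPM on adult plate 1, just below both P7 levels. Atf3 stood at 9.39 and 5.67 against 39.2 CPM and, on adult plate 1, 9.0 CPM. Neither passed over all Pou4f1 wells (adjusted p = 0.23 and 0.27). The sources used here do not state the time from dissection to lysis, and handling and stage cannot be told apart.

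The rule for rises, which asks that both adult plates lie above both P7 plates, can take only genes with a UMI in the lone well, and 752 of the 865 genes called higher had none there. Larger rises such as that of Hspa1b (4.55) are thus left out. The 12 it took were Slc22a6, Ahnak, Hspa1a, Itih5, Zcchc24, Il34, Olfml3, Cyp1b1, Foxc1, Epas1, Efemp1 and Lamb2. Of these, 1 (Hspa1a) was above 50 CPM on adult plate 2, and the others reached that level through the lone well alone. Several also rested on single wells. Slc22a6 had 9 UMIs on adult plate 2, all in 1 well, as did Cyp1b1, and of 59 UMIs of Itih5, 45 were in 1 well. Olfml3 stood at 1.42 and 0.755 CPM at P7 and 4.99 CPM on adult plate 2, with 10 counts in the lone well. It was called among the members (1.5e-07), while without adult plate 1 its adjusted p was 0.12. Most of these genes are known from meningeal, vascular or glial cells, and of the 11 tested over all Pou4f1 wells (Efemp1 was not) 0 passed, with Hspa1a nearest (0.057).

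Aldoc, the brain aldolase and an astrocyte marker of the list, stood at 13.5 and 6.04 against 140 and 196 CPM and was called in each test (log2 3.71 ± 0.27, adjusted p = 2e-38; over all Pou4f1 wells 0.029). The adult myelin-rich wells without Pou4f1 held 475 CPM. Slc1a3, a glial glutamate transporter, stood at 3.41 and 2.64 against 65.5 and 45.0 CPM (2.3e-40 and 0.022). In all, 7 of 9 astrocyte markers, 7 of 11 oligodendrocyte markers, 5 of 6 precursor markers and 4 of 8 vascular markers tested rose among the members, and 1 oligodendrocyte marker fell, where 6.75% of all genes were called higher. These counts are over the genes that passed the filter on low values, and a gene near 0 at P7 passes it only through the adult plates, so they lend no support of their own; 9 of 16 astrocyte and 6 of 11 precursor markers were tested. Over all Pou4f1 wells 2 of 16 astrocyte markers rose, and 0 of 17 oligodendrocyte, 0 of 11 precursor and 0 of 9 vascular markers. Since wells with myelin genes were removed, oligodendrocyte genes are partly set by the rule.

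Shares of wells with a UMI were compared after thinning each well to 2000 UMIs, which kept 280, 251 and 73 members. Dpysl3 was seen in 85.0% and 80.5% of P7 wells (95% exact intervals 80.3% to 89.0% and 75% to 85.2%) and in 23.3% of adult wells (14.2% to 34.6%). In 42 thinned adult wells with no Pou4f1 and at least 3 myelin counts the share was 14.3% (5.43% to 28.5%), an interval that overlaps that of the adult members. Marcksl1 was seen in 86.1% and 88.4% of P7 wells and 26.0% of adult wells, below the 35.7% of the myelin-rich wells. Whether those wells express the gene was not tested, so no expression is read from an adult share at or below theirs. Without thinning, the Dpysl3 shares were 100%, 98.8% and 86.3%, against 26.2% in the myelin-rich wells, where the median depth was 6718 counts. Stmn2 was seen in 88.6%, 84.1% and 56.2% of members and in 11.9% of the myelin-rich wells, and Dcx in 36.1%, 36.7% and 9.59%, against 0 of 42 wells. Hmgb3 was seen in 21.1% and 21.1% of P7 wells and in 1.37% of adult wells, below the 4.76% of the myelin-rich wells.

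Among genes with higher shares, Snap25 was seen in 76.4% and 69.3% of P7 members and 91.8% of adult members (35.7% in the myelin-rich wells), Gpr151 in 35.7%, 37.5% and 71.2% (7.14%), and Hspa1a in 3.57%, 3.98% and 56.2% (16.7%). Tac2 was seen in 57.1% and 49.8% of P7 members and in 86.3% of adult members. The adult myelin-rich wells held it in 90.5%, so the share does not set these wells apart, while mean thinned UMIs per well were 4.63 in the adult members and 1.86 in those wells. Aldoc was seen in 19.2% of adult members and 40.5% of the myelin-rich wells. The number of genes per well at 2000 UMIs was alike, with medians of 1374, 1377 and 1400.

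**Figure D5:**
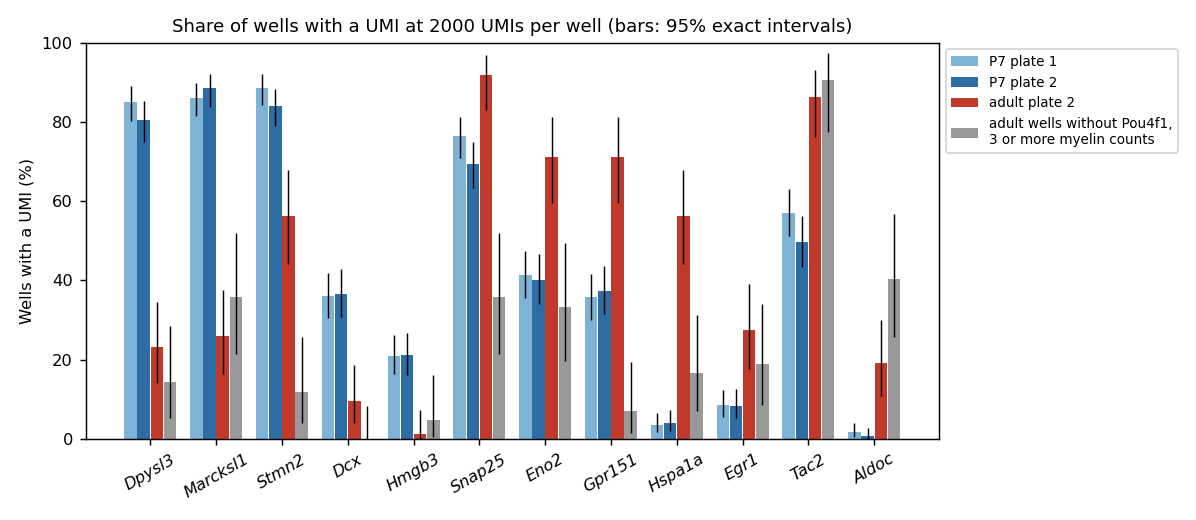
Share of wells with a UMI after thinning to 2000 UMIs per well, for members of the P7 plates (blue), of adult plate 2 (red) and for adult wells of both plates without Pou4f1 and with at least 3 myelin counts (grey); bars of error are 95% exact binomial intervals, for counting error only. For Tac2 and Aldoc the grey bar (90.5% and 40.5%) is higher than the red (86.3% and 19.2%).

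Unspliced and spliced counts are separate molecules of the same wells. In unspliced counts 137 of 6160 genes were called (2.22%), 86 higher (1.4%) and 51 lower (0.828%), and in spliced counts 1488 of 11843 (12.6%), 813 higher (6.86%) and 675 lower (5.7%). Of 5535 genes tested in both, 88 were called in unspliced and 594 in spliced counts. The 44 called in both (50% of the first and 7.41% of the second) had the same direction, 24 higher and 20 lower. Htr2c rose by 3.54 ± 0.44 in unspliced and 2.71 ± 0.28 in spliced counts, Zfhx3 by 2.51 ± 0.43 and 2.22 ± 0.30, and Hsph1 by 2.80 ± 0.42 and 1.11 ± 0.29. Grin2b fell by 1.91 ± 0.56 and 1.99 ± 0.43 (edgeR adjusted p = 0.034 and 0.00012). Over the Pou4f1 wells of adult plate 1, however, Grin2b stood at 185 CPM, above both P7 plates. The unspliced share of the members' counts was 24.5%, 23.7% and 24.6% on P7 plate 1, P7 plate 2 and adult plate 2.

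A set of 100 genes, 42 higher and 58 lower, was called in all 3 tests with the same sign; those named next were picked from it after their values were seen. The tests share wells, so they are not independent of each other. Faim2, an inhibitor of Fas-mediated cell death in neurons, stood at 56.0 and 61.2 against 323 and 255 CPM and rose by 2.37 ± 0.27 (adjusted p = 3.7e-16; over all Pou4f1 wells by 2.22 ± 0.18, 0.023). Gpr158, an orphan receptor of the synapse, stood at 11.9 and 15.1 against 86.9 and 59.4 CPM (1.8e-18 and 0.042). The adult myelin-rich wells without Pou4f1 held 203 CPM of Faim2 and 37.2 CPM of Gpr158. Mapre1, a microtubule plus-end protein, stood at 303 and 306 against 83.3 and 82.8 CPM, with 5 UMIs in the lone well, and fell by 1.84 ± 0.36 (1.7e-05 and 0.034). Cdh13, a cadherin without a cytoplasmic domain, stood at 345 and 356 against 130 and 146 CPM and fell by 1.5 ± 0.35 (0.00043 and 0.045). For each of these genes both adult plates lay on the same side of both P7 plates.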

How the data were processed

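Single-cell RNA of the mouse habenula was measured by CEL-Seq2 on plates. The authors deposited tables of total, spliced and unspliced expected counts per gene and well: each value inverted to a whole UMI number (tolerance 1e-06) by the usual correction for collisions among 4096 UMIs, a formula read off the values themselves. STAR 2.5.3a, Trim Galore and mm10 are named in the submitters' processing notes; strand counting is not stated in the sources used here. Tables hold 37994 genes, of which 37952 were in GENCODE M21, and 92 spike-in rows, which were left out.

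Counts of the chosen wells were summed per plate and rounded, since the tables hold expected counts where the planned test takes whole ones. Genes were filtered (filterByExpr), scaled (TMM) and tested with edgeR 4.0.16 (glmQLFTest, R 4.3.3), with Benjamini-Hochberg adjustment over all genes tested and a threshold of 0.05. The standard error is the log2 fold change divided by the root of F. Levels are CPM over genes outside spike-ins. Alternatives changed the scaling, the filter, the tool (DESeq2 1.42.0), the wells chosen and the plates. With 2 plates a side, a two-sided exact permutation test of a single value cannot go below p = 0.333, so well properties are given as values. Wells were chosen and gene lists drawn up with earlier results of these data known. By the rule, the text names the 12 largest rises and falls among called genes of at least 50 CPM in a stage whose plates do not overlap, outside glial and vascular lists, with members of the lists. Some genes that the rule takes are not reported here. Plates 1 and 2 of the stages were matched by number alone. The correlation of their deviations from the stage means was 0.0289 among the members and 0.0852 over all Pou4f1 wells. Since adult plate 1 is a single well among the members, the first value cannot show whether plates were paired. Sequencing runs held several plates, and the sources used here do not state which shared a run: run and stage cannot be told apart. No doublet caller was run, and no wells were clustered. The script was tested on simulated data. The simulation gave each plate its own depth but the same variability, so it left out the added spread of a plate with 1 well.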

Additional observations from a re-analysis of the deposited data

How the results depend on the processing

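The 1548 calls among the members became 1793 with DESeq2's scaling (776 higher, 1017 lower, where TMM gave 865 and 683; the median of all genes moved from -0.04 to -0.14), 1815 with no filter, 1548 on recovered UMIs, 621 with the replicate block, 1996 with P4 plates in the fit, 2295 with P4 plates and without adult plate 1, 1317 without wells above 3 times their plate's median, 3160 at 2 or more Pou4f1 counts, 2855 with Pou4f1 not required, 116 with myelin genes allowed, 960 under a stricter myelin rule, 1273 without wells holding nonneuronal genes, 3311 in wells with medial genes and 400 after thinning to 2000 UMIs. DESeq2 called 1 gene, with 169 at an unadjusted p under 0.05. Leaving out a plate gave 444 to 3420. At 2 or more Pou4f1 counts, under the stricter myelin rule, in wells with medial genes and after thinning, adult plate 1 gave no well, so the adult side was 1 plate, assumed to vary like the P7 plates. The settings with P4 plates less adult plate 1, and the plates left out over all Pou4f1 wells, were chosen after seeing the data.

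Unspliced calls numbered 137, 166 with DESeq2's scaling, 179 with no filter, 19 with the replicate block and 44 to 527 with a plate left out. Spliced calls numbered 1488, with 1745, 1574, 551 and 176 to 2865 under the same changes. Over all Pou4f1 wells the 116 calls became 681 with the replicate block and 140 to 3538 with a plate left out. The block's pairing is by number alone.

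For 113 named genes, 1986 values under 19 settings gave 1391 with the same call, 435 that lost it, 128 that gained one and 32 that changed sign. Without P7 plate 1, 69 lost their call, and without P7 plate 2, 66. The genes that changed sign were, on the log2 scale, Eno2 -0.018, Grin2a -0.33, Ldhb -0.042, Snap25 -0.000131 with DESeq2; Gabbr1 -0.00959, Kcnq3 0.16, Lrrtm4 0.091, Nfix 0.26 with Pou4f1 not required; Kcnq3 0.057, Lrrtm4 0.71, Vgf 0.00704 with myelin genes allowed; Eno2 -1.06, Gabbr1 -1.32, Got1 -0.55, Gpr151 -0.80, Grin2a -0.99, Kcna2 -0.22, Ldhb -1.05, Oprm1 -0.58, Pcsk1n -1.22, Pkm -1.19, Snap25 -0.33, Tac2 -0.069, Tpi1 -0.54 with the replicate block; Chrm2 -0.54, Grin2a -0.013, Itih5 -6.28 under the stricter myelin rule; Grin2a -0.37 without P7 plate 1; Grin2a -0.32, Ldhb -0.00115 without P7 plate 2; Mapre1 0.015, Snap25 -1.53 without adult plate 2. Without adult plate 1, Grin2a stood at 0.50, Ldhb at 0.96, Mapre1 at -1.94 and Snap25 at 0.77. Fitted values without adult plate 2 are not counted for genes with at most 3 counts in the lone well. The replicate block and DESeq2 kept the same wells and plates, and dropping the Pou4f1 or the myelin condition added wells. The cause of these changes was not tested. Depth limits the adult members: 1 count on adult plate 2 equals 0.712 CPM, and 1 UMI in the lone well of adult plate 1 equals 603.5 CPM.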

Other observations

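Among the 58 genes that fell in all 3 tests was a gene that no list held. Mkrn3, an imprinted gene of the Prader-Willi region, was at 24.5 and 22.3 CPM on the P7 plates, and had 0 counts in the members of adult plate 2, which allows 2.14 CPM (3 counts, counting error only), and 0 on adult plate 1. It was called lower in each test (edgeR adjusted p = 2.8e-10 among the members and 0.034 over all Pou4f1 wells). It was chosen after its values were seen.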
